A study of Mus musculus with 6 samples.

Results

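Ern1, Xbp1, Atf6, Eif2ak3, Atf4, Ddit3, Trib3, Asns, Chac1 and Creb3l3 encode regulators of the unfolded protein response (UPR) and of the integrated stress response, and their RNA was measured in mouse liver after knockdown of the lncRNA Hnf1aos1. The 10 genes were chosen by symbol, for their place in the IRE1, ATF6 and PERK branches or downstream of ATF4, out of 40803 genes in the count table, and all 10 passed the filter on low counts that left 16327 genes to test. Liver was taken from normally fed C57BL6 male mice, about 6 weeks old when they received a recombinant adeno-associated virus of serotype 8 by tail vein, and 4 weeks after the injection. Of 6 mice, 3 received a virus with a scrambled hairpin (rAAV8-sh-scramble) and 3 a virus with a hairpin against Hnf1aos1 (rAAV8-sh-Hnf1aos1), with 1 RNA-seq library per mouse. Both groups therefore carried virus, a hairpin driven by the U6 promoter, which is not restricted to a cell type, and an EGFP reporter, and no uninjected mouse was among these libraries. Levels are given below as normalized counts, which are raw counts scaled between libraries by the TMM method, and a fold change is that of the rAAV8-sh-Hnf1aos1 (knockdown) group over the rAAV8-sh-scramble (scramble) group.

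The UPR starts from sensors in the membrane of the endoplasmic reticulum (ER), the organelle in which hepatocytes fold the plasma proteins they secrete. IRE1 (Ern1) is a kinase and RNase that cuts Xbp1 mRNA so that it encodes the active transcription factor XBP1s, ATF6 is cut in the Golgi to release a transcription factor, and PERK (Eif2ak3) phosphorylates the initiation factor eIF2. Phosphorylated eIF2 lowers protein synthesis in general and favours translation of ATF4, which induces genes of amino acid supply and, under prolonged stress, Ddit3 (CHOP), Trib3 and Chac1. Creb3l3 encodes CREBH, a liver-enriched relative of ATF6 that is processed in the same way and acts on acute phase and lipid genes. Much of this control acts on splicing, cleavage and translation, which gene-level RNA counts do not measure.

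The IRE1 substrate is shown first because it sets what the Xbp1 counts can and cannot show. Xbp1 lies on chromosome 11 (GRCm38, GENCODE M21 annotation, plus strand, 5520659 to 5525893). The bases that IRE1 removes, in capitals below between flanking bases of exon 4, occupy chr11:5524279-5524304 and number 26.
Xbp1 mRNA around the IRE1 cuts: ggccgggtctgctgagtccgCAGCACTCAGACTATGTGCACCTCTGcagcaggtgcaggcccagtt
With the capital bases the reading frame of the longest coding transcript runs for 267 codons, and without them it runs for 371 codons. The deposited counts are summed over the whole gene, so spliced and unspliced Xbp1 mRNA could not be separated.

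For the ATF4 targets Trib3, Asns and Chac1, the promoters are shown because they share a sequence. These genes were chosen as targets of ATF4, so a site for ATF4 in their promoters is not independent of that choice. The C/EBP-ATF response element, searched as TGATGNAA on both strands, is a kind of site that ATF4 binds together with C/EBP proteins. Windows from 250 bases before the RefSeq start site to 30 bases after it (GRCm38.p6) are given 5′ to 3′ along the gene, with the match in capitals.
Trib3 (minus strand, chr2:152344031-152344310): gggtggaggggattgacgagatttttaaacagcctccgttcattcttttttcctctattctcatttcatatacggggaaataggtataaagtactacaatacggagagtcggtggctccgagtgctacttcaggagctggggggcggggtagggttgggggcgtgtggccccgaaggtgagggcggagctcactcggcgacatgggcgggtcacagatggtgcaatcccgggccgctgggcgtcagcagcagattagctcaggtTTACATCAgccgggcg
Asns (minus strand, chr6:7693180-7693459): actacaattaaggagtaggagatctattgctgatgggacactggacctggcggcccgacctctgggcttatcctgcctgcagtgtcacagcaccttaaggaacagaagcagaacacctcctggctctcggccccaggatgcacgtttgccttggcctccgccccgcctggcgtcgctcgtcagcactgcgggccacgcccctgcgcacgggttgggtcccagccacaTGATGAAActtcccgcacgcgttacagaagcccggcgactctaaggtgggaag
Chac1 (plus strand, chr2:119350992-119351271): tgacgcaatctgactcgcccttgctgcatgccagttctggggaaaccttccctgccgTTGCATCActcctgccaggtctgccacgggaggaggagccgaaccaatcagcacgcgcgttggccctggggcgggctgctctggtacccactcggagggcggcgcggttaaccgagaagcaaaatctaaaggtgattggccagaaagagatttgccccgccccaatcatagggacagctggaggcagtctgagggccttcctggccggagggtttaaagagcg
The match read TGATGAAA on the gene's own strand in Asns, 23 bases before the start, and it read TTGCATCA in Chac1 and TTACATCA in Trib3, each the reverse complement of the searched letters. No match was present in the windows of Ern1, Xbp1, Eif2ak3, Atf4, Ddit3 or Creb3l3, and 3.97% of 32851 promoter windows of the same length held one. The ER stress response element (in 0.119% of windows, searched on both strands), the letters TGACGTGG of the unfolded protein response element (0.676%) and the cAMP response element TGACGTCA (1.79%) matched none of these members' windows. A match of letters is a description of the window and not a measured binding site.

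The targeted lncRNA and the libraries were examined before the members. Hnf1aos1 had normalized counts of 512, 491 and 620 in rAAV8-sh-scramble replicates 1 to 3 and of 278, 258 and 433 in rAAV8-sh-Hnf1aos1 replicates 1 to 3. The groups did not overlap, and the log2 fold change was −0.74 ± 0.195 (SE), with a Benjamini-Hochberg adjusted p of 0.0625 in edgeR's quasi-likelihood test, which did not pass the threshold of 0.05. At about the same fold change it passed by DESeq2 (adjusted p 0.00294), without a filter on low counts (0.00564) and by limma voom (0.0418), and without knockdown library 3 the log2 fold change was −1.01 with an adjusted p of 0.000261 by edgeR. Leaving out any other library gave an adjusted p of 0.113 to 0.218 by edgeR. Of 15 fits, which include 8 alternative settings and the fits without each library, 5 passed. Mouse gene totals were 14704746 to 16532510 counts among scramble and 18021614 to 19462398 among knockdown libraries, and spike-in RNA took 1.38% to 1.52% and 1.19% to 1.25% of the counts. Hepatocyte markers were abundant in both groups, with summed normalized counts of 1460627 to 1646375 and 1528003 to 1816807, and 1 of 8 (Tat) was called, lower. Of 10 macrophage and Kupffer cell markers, 3 (Adgre1, Clec4f and Lyz2) were called higher. Over all genes, 3.09% were called higher and 3.23% lower. The sums of the macrophage markers were 3544 to 4245 with the scramble hairpin and 4563 to 5732 with the Hnf1aos1 hairpin. Such a difference in bulk tissue can come from the number of cells or from the RNA in each, which cannot be told apart. Neutrophil markers were near the detection limit, with 1 of 8 tested, none called and sums of 47.2 to 70.4 and 78.8 to 124. B and plasma cells include secretory cells rich in Xbp1. The sums of their markers, 2984 to 3686 and 3019 to 3717, were almost wholly Sdc1, which liver tissue also expresses (2912 to 3611 and 2940.1 to 3644). The more specific Cd79a, Jchain, Mzb1 and Tnfrsf17 had at most 55.0 normalized counts in any library, and none of the 6 markers tested was called. No T and NK cell, endothelial or stellate marker was called. Cholangiocyte markers had sums of 983 to 1094 with the scramble and 1193 to 2911 with the Hnf1aos1 hairpin, and 1 of the 6 tested was called, lower. Knockdown library 1 stood apart among them, with Spp1 at 2161 against 426 and 513 in the other knockdown libraries and 282 to 319 in the scramble group, and with Epcam at 83.9 against at most 40.7 in any other library. Neither gene was called, both were chosen after their values were seen, and the part of these markers in the results below was not tested.

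After the knockdown, Xbp1 and Atf4 rose, and the other 8 members did not pass the test. Over all genes, 6.32% were called at an adjusted p under 0.05, 3.09% higher and 3.23% lower, against 2 of the 10 members called, both higher. The members were chosen with earlier results of these data known, so their share is not independent of that choice and was not tested. The groups did not overlap for 3 members, Xbp1, Atf4 and Chac1, all higher in the knockdown libraries, where 15.2% of all genes lay higher and 13.7% lower without overlap. The median log2 fold change was 0.23 over the 10 members and −0.000396 over all genes tested. Each edgeR p-value sets the group difference against the spread between these mice, estimated with the help of all genes tested. With 3 against 3, an exact two-sided permutation test cannot go below 0.1, the value it gave for each of those 3 members.

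**Figure D1:**
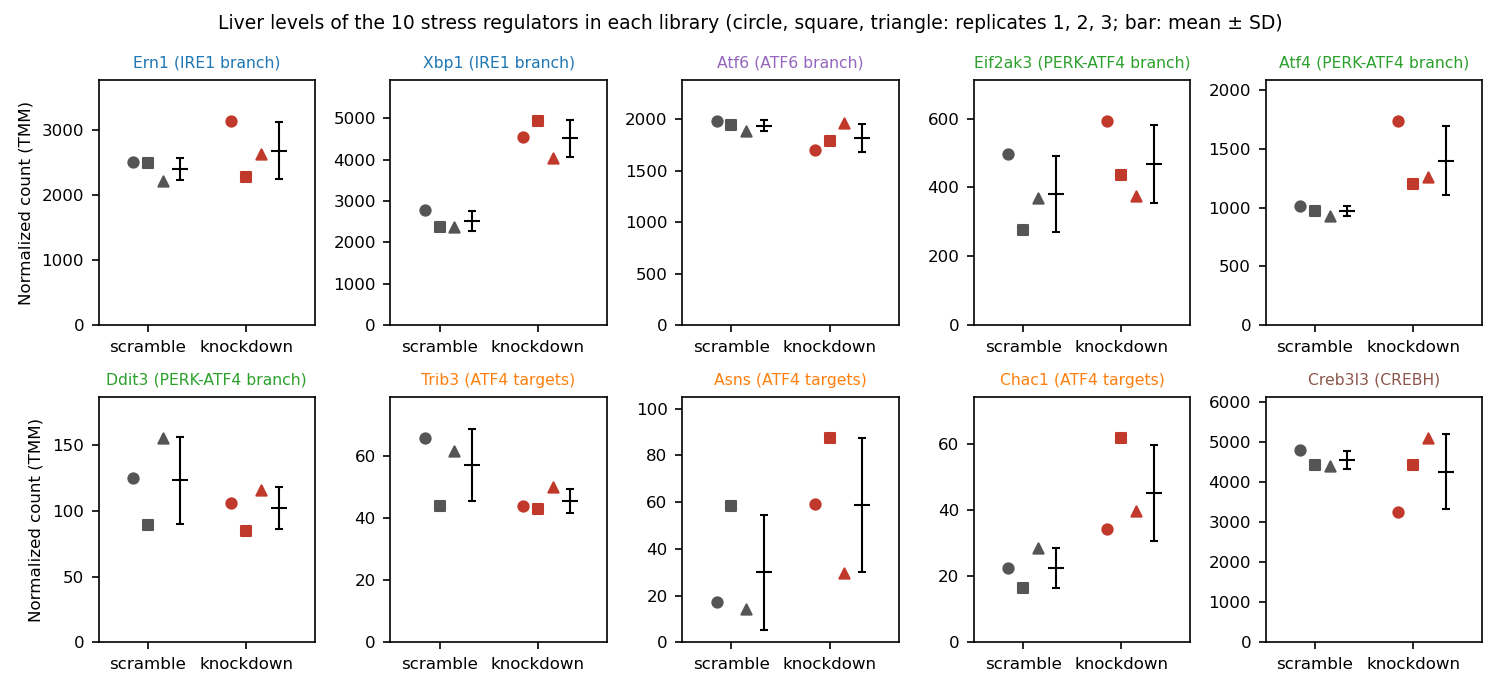
Normalized counts (TMM, linear axis from 0) of the 10 regulators in each of the 6 libraries, with scramble in grey and knockdown in red, the mean ± SD (n = 3) as a bar, and circle, square and triangle for replicates 1, 2 and 3. Xbp1, Atf4 and Chac1 show no overlap between the groups, and the other 7 genes overlap.

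In the IRE1 branch, the substrate rose and the sensor did not pass the test. Xbp1 had normalized counts of 2792, 2377.5 and 2371 in scramble libraries 1, 2 and 3, and of 4552, 4935 and 4048 in knockdown libraries 1, 2 and 3. Every knockdown library lay well above every scramble library, with a gap between the groups wider than the spread within either. The mean went from 2514 ± 241 (SD, n = 3) to 4511 ± 445 (SD, n = 3), a 1.79-fold increase, and the log2 fold change was 0.84 ± 0.108 (SE) with an adjusted p of 0.00272 by edgeR's quasi-likelihood test. Xbp1 was called in all 15 fits, which include 8 alternative settings and the fits without each library, and its log2 fold change ranged from 0.78 to 0.93 as 1 library was left out. Ern1, which encodes the IRE1 sensor itself, had normalized counts of 2505.5, 2487 and 2211 with the scramble hairpin and 3137.5, 2269 and 2625 with the Hnf1aos1 hairpin. Knockdown library 1 was the highest of the 6, but library 2 lay below 2 of the scramble libraries. The log2 fold change of Ern1 was 0.16 ± 0.119 (SE), with an adjusted p of 0.459 by edgeR.

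In the ATF6 branch, the sensor gene itself did not pass the test. Atf6 had normalized counts of 1986, 1947 and 1885 with the scramble hairpin and 1701, 1792 and 1964 with the Hnf1aos1 hairpin. Knockdown libraries 1 and 2 lay below the scramble libraries and library 3 among them, giving a log2 fold change of −0.09 ± 0.0882 (SE) and an adjusted p of 0.565 by edgeR. On the deposited TPM values the groups did not overlap, at 31.3, 30.3 and 31.0 TPM with the scramble hairpin and 26.7, 26.4 and 29.2 TPM with the Hnf1aos1 hairpin, all lower. The sign depended on the scaling, since library sizes taken from the spike-ins put it at 0.11. Those sizes moved the median of all genes by 0.20, so that Atf6 stayed below the median gene under either scaling. Changes under spike-in sizes are read against that shift below.

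In the PERK and ATF4 branch, Atf4 rose while Eif2ak3 and Ddit3 did not pass the test. Eif2ak3, which encodes the eIF2 kinase PERK, had normalized counts of 497, 278 and 369.5 with the scramble hairpin and 593, 436 and 374 with the Hnf1aos1 hairpin. The groups overlapped, with scramble library 1 above knockdown libraries 2 and 3, and the log2 fold change was 0.29 ± 0.247 (SE) with an adjusted p of 0.525 by edgeR. Its exons share 485 bases with an opposite-strand gene model, Gm43292.

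Atf4, the transcription factor translated when eIF2 is phosphorylated, had normalized counts of 1011, 968 and 926 with the scramble hairpin and 1737, 1200.2 and 1262 with the Hnf1aos1 hairpin. The scramble libraries lay close together, all knockdown libraries were above them, and knockdown library 1 stood far above the other two. The increase was 1.45-fold, with a log2 fold change of 0.53 ± 0.132 (SE) and an adjusted p of 0.0419 by edgeR's quasi-likelihood test. This call lay close to the threshold and was made in 8 of 15 fits. Without knockdown library 1 the log2 fold change was 0.34 with an adjusted p of 0.0676, and without scramble library 1, 2 or 3 the adjusted p was 0.0831, 0.126 or 0.210. Library totals (0.0805), a minimum mean of 50 counts (0.0622) and limma voom (0.0572) also put the adjusted p above 0.05.

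Ddit3, which encodes the stress-induced factor CHOP, had normalized counts of 125, 88.9 and 155 with the scramble hairpin and 106, 84.6 and 116 with the Hnf1aos1 hairpin. The groups overlapped, with the highest 2 values both in scramble libraries. The log2 fold change was −0.27 ± 0.212 (SE), with an adjusted p of 0.478 by edgeR. Exons of Ddit3 share 105 bases with a second gene model of the same symbol on the same strand. On the other strand they share 68 bases with the methionyl-tRNA synthetase gene Mars and 13 bases with Gm4189. The strand setting of the counting is not given in the sources used here.

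The 3 ATF4 targets whose promoters are shown above were all scarce, and none was called. Trib3, a pseudokinase induced by ATF4 and CHOP, had normalized counts of 65.7, 43.9 and 61.6 with the scramble hairpin and 43.9, 42.8 and 49.8 with the Hnf1aos1 hairpin, with scramble library 2 among the knockdown values. Its log2 fold change was −0.33 ± 0.229 (SE), with an adjusted p of 0.420 by edgeR. Trib3 thus had a lower mean in the group in which Atf4 was higher. Asns, the asparagine synthetase, had normalized counts of 17.4, 58.2 and 14.3 with the scramble hairpin and 59.1, 87.4 and 29.9 with the Hnf1aos1 hairpin. Scramble library 2 lay far above the other two and above knockdown library 3. The log2 fold change of Asns was 0.97 ± 0.605 (SE), with an adjusted p of 0.384 by edgeR, and it was 1.87 without scramble library 2, still not called. Chac1, an enzyme that degrades glutathione, had normalized counts of 22.6, 16.5 and 28.6 with the scramble hairpin and 34.3, 61.8 and 39.9 with the Hnf1aos1 hairpin. All knockdown libraries lay above all scramble libraries, with knockdown library 2 the highest. The log2 fold change was 1.00 ± 0.319 (SE), the largest of the 10 members, with an adjusted p of 0.0854 by edgeR. Chac1 passed the threshold with spike-in library sizes (0.0208) and without a filter on low counts (0.0279), and in none of the 6 fits that left out a library. Its raw counts were only 15 to 65 per library.

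Creb3l3, the liver-enriched CREBH, did not pass the test and spread widely in the knockdown group. It had normalized counts of 4815, 4434.5 and 4408 with the scramble hairpin and 3258, 4444 and 5106 with the Hnf1aos1 hairpin. Knockdown library 1 was the lowest and knockdown library 3 the highest of the 6. The log2 fold change was −0.09 ± 0.145 (SE), with an adjusted p of 0.751 by edgeR, and it turned to 0.06 without knockdown library 1 and to 0.11 with spike-in library sizes.

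**Figure D2:**
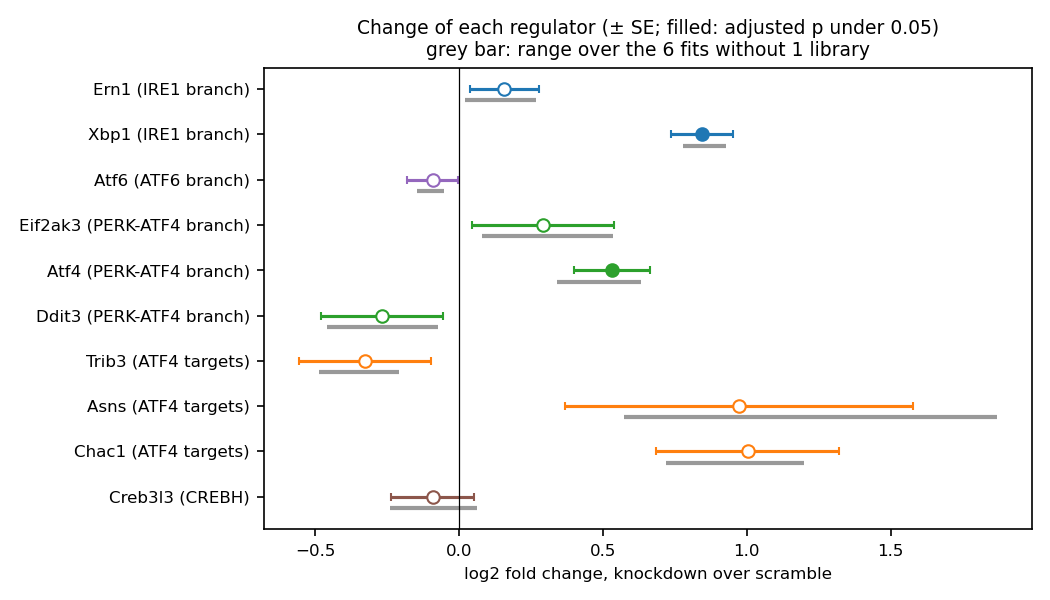
Log2 fold change of knockdown over scramble for each regulator, coloured by branch, with its SE as a bar; filled circles have an adjusted p under 0.05 by edgeR, and the grey bar gives the range over the 6 fits that each left out 1 library. The bar of Xbp1 runs from 0.78 to 0.93, that of Asns from 0.57 to 1.87, and that of Creb3l3 crosses 0.

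Levels of different genes were compared per length, on the deposited TPM values. In the scramble libraries Creb3l3 was the most abundant at 259 ± 12.1 TPM (SD, n = 3), followed by Xbp1 at 146 ± 13.0, Atf4 at 72.9 ± 2.10, Ern1 at 44.5 ± 1.89 and Atf6 at 30.9 ± 0.486. Eif2ak3 at 10.2 ± 2.94 and Ddit3 at 6.34 ± 1.88 TPM had overlapping libraries, as did Chac1 at 1.88 ± 0.558 and Asns at 1.13 ± 0.905, with Trib3 between these pairs at 3.63 ± 0.783 TPM. All other neighbours in this order had libraries that did not overlap. The order at the top differed in the knockdown libraries, where Xbp1 reached 248 ± 25.2 TPM and Creb3l3 230 ± 44.6, with overlapping libraries. Xbp1 exceeded Creb3l3 in knockdown library 1 (260.1 against 183 TPM) and library 2 (265 against 235 TPM) but not in library 3 (219 against 272 TPM). At the bottom, Trib3 exceeded Chac1 in each scramble library, while Chac1 was above Trib3 in each knockdown library, with values of 2.81 against 2.75 TPM in library 1, 4.75 against 2.52 in library 2 and 3.09 against 2.96 in library 3.

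Ratios of raw counts within a library do not depend on how libraries are scaled, and they were computed after the members' values had been seen, as a description with no test. Xbp1 counts were 111%, 95.6% and 107% of Ern1 counts with the scramble hairpin and 145%, 217% and 154% with the Hnf1aos1 hairpin, with no overlap. The substrate of IRE1 was therefore higher relative to the transcript of its sensor in every knockdown library. Atf4 counts were 204%, 349% and 251% of Eif2ak3 counts with the scramble hairpin and 293%, 275% and 337% with the Hnf1aos1 hairpin, and the groups overlapped. Trib3 counts were 6.50%, 4.54% and 6.65% of Atf4 counts with the scramble hairpin and 2.53%, 3.56% and 3.95% with the Hnf1aos1 hairpin, lower with no overlap. Ddit3 counts were 12.4%, 9.18% and 16.7% of Atf4 counts against 6.10%, 7.05% and 9.19%, so that knockdown library 3 just met scramble library 2. Asns and Chac1 relative to Atf4 overlapped between the groups, at means of 3.09% ± 2.53 and 4.35% ± 2.59 (SD, n = 3) for Asns and of 2.34% ± 0.700 and 3.43% ± 1.60 (SD, n = 3) for Chac1. Since Atf4 is the divisor, its own increase enters each of the last 4 ratios.

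**Figure D3:**
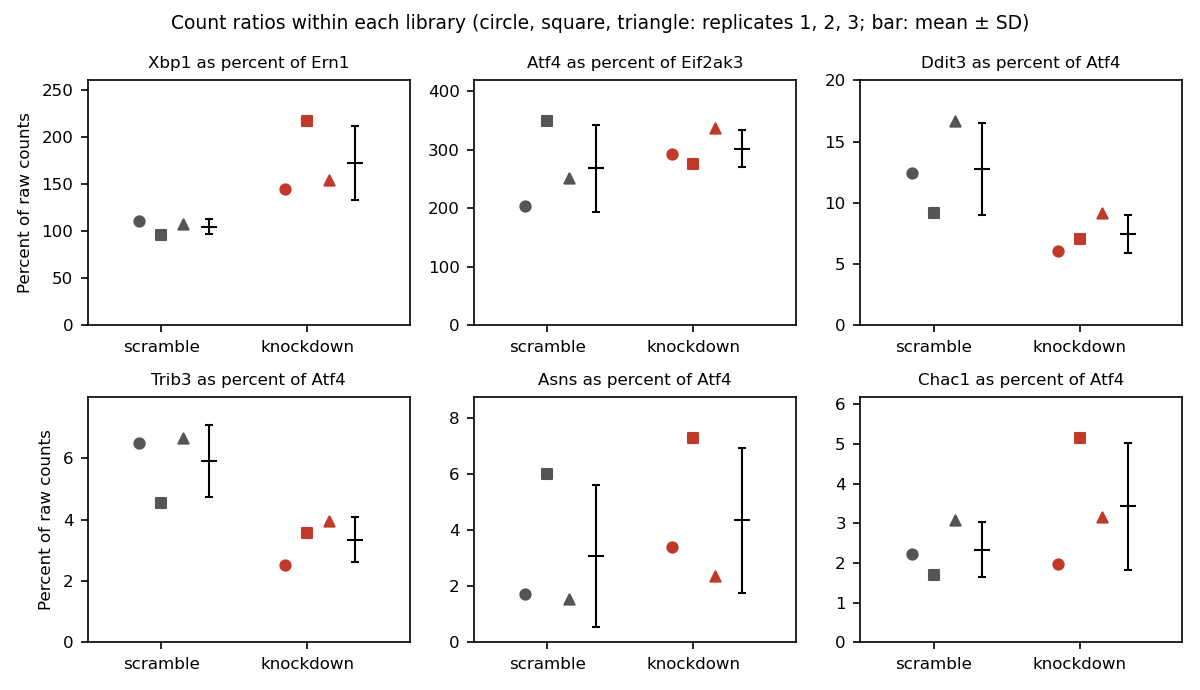
Raw counts of one gene as a percent of another within each library (linear axes from 0), with scramble in grey, knockdown in red, mean ± SD (n = 3) as a bar and symbols for the replicates. Xbp1 relative to Ern1 is higher in all 3 knockdown libraries, Trib3 relative to Atf4 is lower in all 3, and the other 4 ratios overlap.

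The members moved in different libraries. Knockdown library 1 held the highest Ern1, Eif2ak3 and Atf4 of the 6 libraries and the lowest Atf6 and Creb3l3, while knockdown library 2 held the highest Xbp1, Asns and Chac1 and the lowest Ddit3 and Trib3. Among the scramble libraries, library 2 had the lowest Eif2ak3, Ddit3, Trib3 and Chac1 but the highest Asns.

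The genes that the branches act on were then described from lists set by function. Of 27 known or likely XBP1s targets, which serve translocation into the ER, signal peptide cleavage, ER-associated degradation and transport out of the ER, 8 rose and none fell, with a median log2 fold change of 0.28 and 26 of 27 values above 0. For 18 of them the groups did not overlap, all higher, where 15.2% of all genes lay higher without overlap and 3.09% were called higher. Sec61g, a subunit of the translocation channel, went from 153 ± 17.7 to 238 ± 6.31 normalized counts (SD, n = 3), a log2 fold change of 0.63 ± 0.127 (SE) with an adjusted p of 0.0175 by edgeR. Spcs2 (signal peptidase) rose by 0.44, Derl1 (retrotranslocation for degradation) by 0.41, Dnajc3 (a cochaperone that also restrains PERK) by 0.40 and Sec24d (a coat protein of vesicles leaving the ER) by 0.38 on the log2 scale, each with an adjusted p between 0.0306 and 0.0411 by edgeR. The changes were thus smaller than that of Xbp1 itself. Groups overlapped for Dnajb9 and Edem1, also of this list and chosen after their values were seen. Dnajb9 had normalized counts of 1931, 875 and 1302 with the scramble hairpin and 1895, 1211 and 1313 with the Hnf1aos1 hairpin. Edem1 had 5208, 4825 and 4672 with the scramble hairpin and 5271, 5187.5 and 5228 with the Hnf1aos1 hairpin. None of the 27 was called without scramble library 2, without scramble library 3 or without knockdown library 2, while the median stayed at 0.25, 0.24 and 0.32. In the same 3 fits the calls over all genes also fell, from 505 higher to 169, 38 and 140. Leaving out scramble library 1 or knockdown library 1 gave 5 and 2 calls. Only 1 was called with library totals and 2 with a minimum mean of 50 counts. The macrophage markers given above were higher in the same libraries, and their part in this was not tested.

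Of 15 ATF6 targets and factors of ATF6 processing, 3 rose and none fell, with a median log2 fold change of 0.31. Over all genes, 3.09% were called higher. For 10 of the 15 the groups did not overlap, all higher, as for 15.2% of all genes. Hyou1, an ER chaperone, went from 5933 ± 808 to 8700.2 ± 416 normalized counts (SD, n = 3), a log2 fold change of 0.55 ± 0.113 (SE) with an adjusted p of 0.0196 by edgeR. Creld2, a secreted ER stress protein, rose by 0.87 and Hsp90b1 (the chaperone GRP94) by 0.51 on the log2 scale, with adjusted p of 0.0262 and 0.0270 by edgeR. Hspa5 (BiP), the chaperone that holds the sensors inactive, had a log2 fold change of 0.52 with an adjusted p of 0.0804 by edgeR, and Herpud1, a degradation factor, was the 1 gene of the list below 0, at −0.78 with an adjusted p of 0.291; both were chosen after their values were seen. None of the 15 was called without scramble library 3 or without knockdown library 2, 1 was called without scramble library 2 or without knockdown library 1, and 6 were called without scramble library 1. Of 5 relatives of CREBH and ATF6, none was called by edgeR or DESeq2 and 1 had an unadjusted p under 0.05, with a median of 0.28 and the smallest p for Creb3 (0.31, adjusted p 0.0956 by edgeR) and Atf6b (0.20, adjusted p 0.263). Their median was 0.44 without knockdown library 3.

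Of 14 eIF2 kinases, eIF2 and eIF2B subunits and eIF2 phosphatase regulators, 2 rose and none fell, with a median of 0.19, where 3.09% of all genes were called higher. For 8 of the 14 the groups did not overlap, all higher, as for 15.2% of all genes. Eif2s1, which encodes the alpha subunit of eIF2 that the kinases phosphorylate, went from 525 ± 47.9 to 759 ± 124 normalized counts (SD, n = 3), a log2 fold change of 0.53 ± 0.123 (SE) with an adjusted p of 0.0308 by edgeR. Eif2ak2, which encodes PKR, an interferon-inducible eIF2 kinase activated by double-stranded RNA, had normalized counts of 828, 599 and 657 with the scramble hairpin and 1931, 1510.0 and 1090 with the Hnf1aos1 hairpin. All knockdown libraries were above the scramble libraries, and the log2 fold change was 1.12 ± 0.222 (SE) with an adjusted p of 0.0360 by edgeR. It was thus PKR, and not PERK, that passed the test among the kinases, and the difference between those kinases was not tested. Neither Eif2s1 nor Eif2ak2 was called without scramble library 2, without scramble library 3 or without knockdown library 2, and 1 of the 2 was called without knockdown library 1 and with library totals.

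The amino acid genes downstream of ATF4 did not rise together, while the aminoacyl-tRNA synthetases lay mostly above 0 with none called by edgeR. Of 18 tested genes of amino acid synthesis and transport out of 19 in the list (Slc7a11, the cystine carrier, was too low to test), none was called by edgeR or DESeq2, 1 had an unadjusted p under 0.05, and the median was −0.07. The smallest p values were those of Cbs, which makes cystathionine (−0.26, adjusted p 0.199 by edgeR), and Psph, of serine synthesis (0.45, adjusted p 0.220). Of 20 cytosolic aminoacyl-tRNA synthetases, several of which ATF4 induces, none was called by edgeR, although 11 had an unadjusted p under 0.05, as did 23.4% of all genes, and DESeq2, which called 7.80% of all genes, also called none. Their median was 0.21, 19 of 20 values lay above 0 and 13 had groups that did not overlap, all higher (15.2% of all genes), with the smallest p for Qars (0.30, adjusted p 0.0662) and Wars1 (0.36, adjusted p 0.0741 by edgeR). With spike-in library sizes, 17 of the 20 were called higher, on top of the shift of the median of all genes. In that fit 3030 of all 16327 genes tested were called higher. Without knockdown library 3, 1 of the amino acid genes and 2 of the synthetases were called.

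Of 15 stress-responsive bZIP factors, feedback genes and further targets of this response, 1 fell and none rose, with a median of 0.07. The share called was 6.67%, close to the 6.32% of all genes. The groups did not overlap for 3 genes that were higher and 2 that were lower, against 15.2% and 13.7% of all genes. The median was −0.03 without knockdown library 1 and 0.14 without scramble library 3, and 2 genes were called without scramble library 2, without knockdown library 1 or by DESeq2. The gene that fell was Vldlr, the very low density lipoprotein receptor, an ATF4-responsive gene that the study itself displays, so it was not chosen independently of these samples. Counts after scaling were 108, 73.5 and 86.9 with the scramble hairpin and 17.2, 15.2 and 37.1 with the Hnf1aos1 hairpin. Each knockdown library lay below each scramble library, and the log2 fold change was −1.94 ± 0.321 (SE) with an adjusted p of 0.00903 by edgeR. Vldlr was called in all fits except the one without scramble library 3.

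Of 13 CREBH targets, none was called by edgeR, with a median of −0.13 and values from −1.32 to 1.99. An unadjusted p under 0.05 was found for 5, against 23.4% of all genes. DESeq2 called 2, against 7.80% of all genes. The groups did not overlap for 2 that were higher and 3 that were lower, against 15.2% and 13.7% of all genes. Without knockdown library 1 the median was 0.07 with 1 call, without scramble library 2 it was 0.02 with none, and without knockdown library 3 there were 3 calls at a median of −0.16. Apcs had normalized counts of 207, 291 and 287 with the scramble hairpin and 1597, 1115 and 415 with the Hnf1aos1 hairpin. It was chosen after its values were seen. Apoa1, the main protein of high density lipoprotein, had 43405 ± 2253 normalized counts under the scramble and 57787 ± 6069 under the Hnf1aos1 hairpin (SD, n = 3), with a log2 fold change of 0.41 and an adjusted p of 0.0581 by edgeR. Hamp2, a hepcidin gene with a near-identical copy in Hamp and thus an uncertain count, had a log2 fold change of −0.72 and an adjusted p of 0.108 by edgeR. Of 6 transcripts known to be degraded by IRE1, none was called by edgeR or DESeq2 and none had an unadjusted p under 0.05, with a median of −0.05 and the smallest p for Pdgfrb (0.28, adjusted p 0.324 by edgeR) and Col6a1 (−0.25, adjusted p 0.444). The median of these 6 turned to 0.04 without scramble library 2 and 0.03 without knockdown library 2. With spike-in library sizes the medians of the CREBH targets (0.08), the amino acid genes (0.13) and the IRE1 decay substrates (0.15) turned above 0 but remained below the median of all genes, while that of the XBP1s targets was 0.48.

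**Figure D4:**
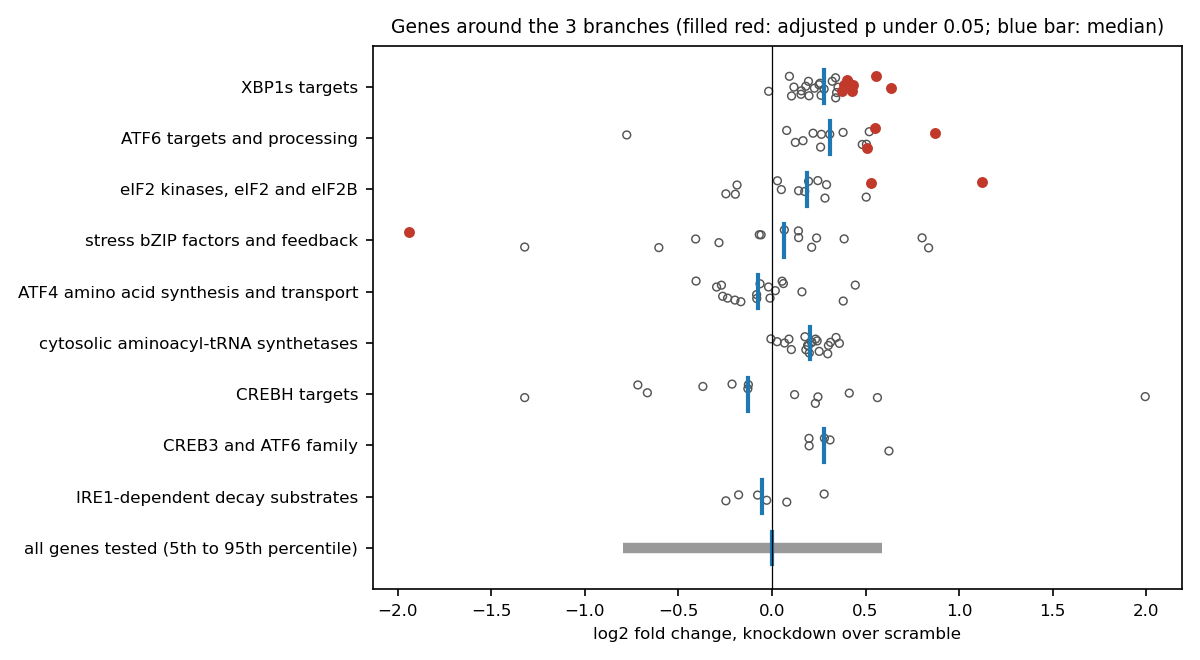
Log2 fold change of knockdown over scramble for every tested gene of 9 lists around the UPR and the integrated stress response, filled red where the adjusted p was under 0.05 by edgeR, with the list's median as a blue bar and the 5th to 95th percentile of all genes tested in grey. The XBP1s targets (median 0.28) and ATF6 targets (0.31) lie mostly to the right of 0, and the amino acid genes (−0.07) lie around it.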

How the data were processed

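Liver RNA of 6 mice was measured by RNA-seq. The authors trimmed reads with Trimmomatic, aligned them with STAR and obtained the deposited raw counts with featureCounts, from exonic reads that mapped to a single place. The paper names GRCm38 and a poly(A) kit, while the labels name GRCm39 and depletion of ribosomal RNA. The deposited TPM values are scaled by gene length and library total, and the authors' normalized counts are a signal, raw counts divided by 1 factor per library. The authors' table of log2 fold changes and p-values was not used.

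The 92 spike-in rows were left out. In R 4.3.3, edgeR 4.0.16 compared the groups over all genes passing filterByExpr, with TMM scaling, robust quasi-likelihood fits and Benjamini-Hochberg adjustment over all 16327 genes tested. Standard errors were derived from the fitted log2 fold change and its test. Two-sided exact permutation tests used log2(normalized count + 1). The alternatives were DESeq2 1.42.0, its size factors, library totals, spike-in sizes, no filter, a minimum mean of 50 counts, a replicate block, limma 3.58.1 voom and each library left out. The script was tested on simulated data, in which edgeR called 96% of the changed genes. Of its calls at an adjusted p under 0.05, 8.57% fell on unchanged genes. Between libraries of 1 group, the chi-square of the counts was 7.69 to 31.7 per gene, where sampling noise gives about 1, so no library was a repeat of another. At these depths counting error is small for the abundant members, while Asns, Chac1 and Trib3 rest on few reads.

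The members and gene lists were chosen with earlier results of these data known. Named genes were all members, Hnf1aos1, and in each list the called genes, at most 5 by p, or the 2 with the smallest p where none was called. Positions are from GENCODE M21, promoters from RefSeq (9 of the 10 members matched), and figures were drawn with matplotlib 3.10.9. Results on some genes are not reported here.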

Additional observations from a re-analysis of the deposited data

How the results depend on the processing

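Xbp1 was called in all fits, and no member was called lower in any. Reversed signs were those of Atf6 (0.11) and Creb3l3 (0.11) with spike-in library sizes and of Creb3l3 without rAAV8-sh-Hnf1aos1 replicate 1 (0.061, in a range of −0.24 to 0.061 as a library was left out), none of them called. The deposited TPM values and the authors' normalized counts moved no member's difference by more than its spread between replicates. The number of members called was 1 with library totals, a minimum mean of 50 counts or limma voom, and 1 to 2 when a library was left out. Of the genes in the pathway lists, 13 were called higher and 1 lower. With library totals 5 were higher, with spike-in sizes 68, without a filter 22 higher and 4 lower, and with a minimum mean of 50 counts 7 higher. Leaving out a library gave 0 to 16 higher and 0 to 3 lower. Over all genes, 505 were called higher and 527 lower. Library totals gave 320 higher, spike-in sizes 3030, and no filter 870 higher and 1032 lower, while leaving out a library gave 38 to 1015 higher and 65 to 866 lower. With a log2 fold change above 1 or below −1, 128 genes were higher and 224 lower. DESeq2 gave 203 higher, spike-in sizes 345 higher, no filter 382 lower and a minimum mean of 50 counts 112 lower, and leaving out a library gave 22 to 283 higher and 45 to 327 lower. The cause of these differences was not tested, except that a minimum mean tests fewer genes (11781) and leaving out a library uses fewer samples.

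No pairing by replicate number was seen over the genes tested, where the correlations of same-numbered deviations were −0.0271, 0.0194 and 0.00724. Such correlations cannot exclude a pairing that affects only some genes. With the replicate number as a block, 2 members were called, as without it, and 12 genes of the pathway lists were called higher, and Hnf1aos1 had an adjusted p of 0.0138 in edgeR. Depth limits Asns, Chac1 and Trib3 most, and Asns and Chac1 were not tested under the minimum mean of 50 counts.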
